A study of Physcomitrium patens with 20 samples.

Results

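In protonema of the moss Physcomitrium patens, 87 genes were far below wild type in every library of the dnmt3b mutant. Their means in the double mutants met/dnmt3b and cmt/dnmt3b were at least 0.5 of the wild-type mean. The genes were selected from 31967 gene rows on measured values. Levels are given as CPM, the count of a gene per 1000000 summed gene counts of its library. A gene was taken if it reached 2 CPM in every wild-type library and stayed under 0.5 of the lowest wild-type library in every dnmt3b library. The means of met/dnmt3b and of cmt/dnmt3b also had to be at least 0.5 of the wild-type mean. Genes whose identifier starts with Pp3c19_ were left out. Of 14995 genes at 2 CPM or more in every wild-type library, 206 met the limit in dnmt3b. Of these 206, 98 also passed in cmt/dnmt3b, 145 passed in met/dnmt3b, and 87 passed in both. The levels in wild type, dnmt3b and the double mutants therefore describe the selection and are given without a test.

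Protonema is the filamentous juvenile tissue of the moss. Polyadenylated RNA was sequenced after 7 days on plates at 25 °C, with 16 h of light and 8 h of dark, in cultivar Grandsen. The 7 genotypes were wild type (wt), the single mutants met, cmt and dnmt3b, the double mutants met/dnmt3b and cmt/dnmt3b, and drm1drm2 (drm12), with 2 libraries of met and 3 of each other genotype, and no treatment was applied. The labels name the mutated genes but not the alleles or whether a line was 1 clone. They also give each library a batch, without saying what the batch was. All met and met/dnmt3b libraries were in batch 1 and all dnmt3b and cmt/dnmt3b libraries in batch 2. For wt, drm12 and cmt, replicates 1 and 2 were in batch 1 and replicate 3 in batch 2. Since met, dnmt3b and both double mutants each lay in 1 batch, the difference between batches could be measured only in wt, drm12 and cmt. No label ties the replicates to separate cultures, and a p-value here reflects the spread among libraries, whatever its source.

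DNA methyltransferases add methyl groups to cytosines, and in plants the sequence context decides which enzyme acts. MET copies methylation at CG sites after replication, CMT enzymes (chromomethylases) methylate CHG sites, and moss DNMT3b, a relative of the animal DNMT3 enzymes, is the main enzyme at CHH sites of heterochromatin, where H is any base but G. DRM enzymes are the plant relatives of DNMT3 that carry rearranged catalytic motifs. Such methylation is best known for silencing transposable elements. The deposited identifiers could not be paired with gene names, products or sequences, so the members are given by identifier and nothing is said of what they do. The chromosome is read from the identifier, where Pp3c10 stands for chromosome 10, and neighbours are read from the order of the numbers. Markers of the tissue and the mutated genes themselves were not analysed here for the same reason.

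The members spanned a wide range of levels. Their wt means ran from 2.43 to 1287 CPM with a median of 36.3 CPM, against a median of 25.6 CPM over the 14995 genes. All 87 passed the low-count filter of the fit, and 86 had at least 1 count in each of the 20 libraries. Library totals, transposable elements included, ran from 14236575 to 21811993 counts. The summed level of the members is a compact view of the set, in which members of high level weigh most. In wt it was 8330 CPM in replicate 1, 8781 CPM in replicate 2 and 4195 CPM in replicate 3 (7102 ± 2528 CPM, SD, n = 3). In dnmt3b it was 938, 1564 and 1346 CPM (1283 ± 318 CPM, SD, n = 3). The wt library of batch 2 thus lay well below the other 2. It was the lowest wt library for 81 of the 87 members (93.1%), compared with 28.7% of the 14995 genes. In RNA from whole tissue, fewer cells of a type and less RNA per cell cannot be told apart.

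**Figure D1:**
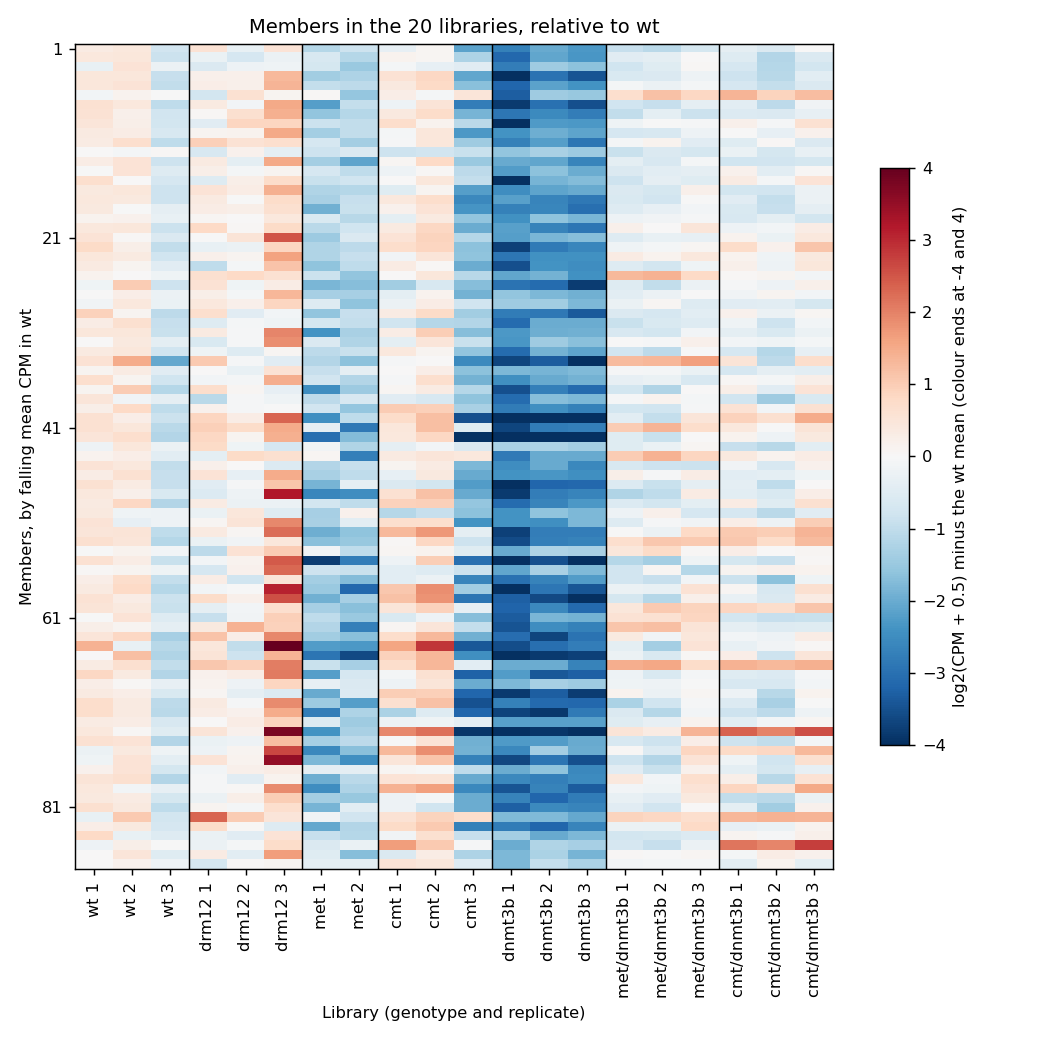
Log2 level of each of the 87 members (rows) in each of the 20 libraries (columns, grouped by genotype) relative to the wt mean of that member, with blue for lower and red for higher and 0.5 CPM added before the log. The 3 dnmt3b columns are blue throughout, as the selection requires, and both met columns and cmt replicate 3 are also mostly blue, while drm12 replicate 3 is mostly red.

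The wt mean was 2.54 to 164 times the dnmt3b mean, with a median ratio of 6.51. These ratios mix batches, since wt replicates 1 and 2 were in batch 1 and all dnmt3b libraries in batch 2. In wt replicate 3, of batch 2, the median member was at 0.580 of its wt mean. In dnmt3b replicates 1, 2 and 3 it was at 0.144, 0.201 and 0.180. Pp3c10_5660 had the highest wt level of the members, at 1529, 1622 and 709.9 CPM in wt and 184.5, 300.2 and 247.4 CPM in dnmt3b, a ratio of means of 5.27. The lowest wt library still held more than 2 times the highest dnmt3b library. Pp3c12_2240 was at 455, 452 and 174 CPM in wt and at 17.8, 42.2 and 29.6 CPM in dnmt3b, a ratio of 12.1. Pp3c16_23620 was at 48.6, 55.5 and 15.05 CPM in wt and at 0.457, 0.0507 and 0.299 CPM in dnmt3b, a ratio of 148. It was close to undetected in the mutant. Pp3c16_13260 was at 11.3, 8.73 and 5.91 CPM in wt and had 3 counts in all over the 3 dnmt3b libraries. The ratio of its pooled counts was 157, with a 95% exact (Clopper-Pearson) interval of 53.4 to 765 that covers counting error only. Pp3c3_4040, Pp3c9_2920, Pp3c10_21810 and Pp3c16_13280 were the other 4 of the 6 members with the largest falls when 0.5 CPM was added before the log, which ranks genes of low level further down, and their ratios of means were 53.2, 29.9, 24.0 and 23.3.

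At the edge of the selection the members differed little from genes left out. Pp3c1_37070 had its highest dnmt3b library at 0.498 of its lowest wt library (1.01 and 2.04 CPM), and Pp3c17_5790 had it at 0.492 (16.0 and 32.6 CPM). Just outside lay Pp3c3_13510 at 0.503 (26.8 and 53.3 CPM) and Pp3c1_6110 at 0.505 (22.6 and 44.9 CPM). How many genes were selected depended most on the wt library of batch 2. Without wt replicate 3 the same rule gave 243 genes, of which 56 were among the 87. The other members then failed the limit in a double mutant, because leaving out a library cannot lower the lowest wt level. With wt replicate 3 as the only wt library the rule gave 206, all 87 among them. Leaving out dnmt3b replicate 2 gave 133 genes with all 87 among them, and library sizes scaled by trimmed means of M-values (TMM) gave 56, of which 52 were members.

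In the double mutants the members were much closer to wt. The summed level was 5154, 5468 and 6268 CPM in met/dnmt3b (5630 ± 574 CPM, SD, n = 3) and 5990, 4852 and 6862 CPM in cmt/dnmt3b (5901 ± 1008 CPM, SD, n = 3). All 6 sums lay above every dnmt3b sum and above the wt replicate 3 sum, and below those of wt replicates 1 and 2. By member, the mean relative to the wt mean ran from 0.505 to 2.29 in met/dnmt3b (median 0.785) and from 0.514 to 5.57 in cmt/dnmt3b (median 0.839), where the selection set the lower end. The mean was above the wt mean for 22 members in met/dnmt3b (25.3%) and for 26 in cmt/dnmt3b (29.9%). Over the 14995 genes the shares were larger, at 47.6% in met/dnmt3b and 66.8% in cmt/dnmt3b. Every cmt/dnmt3b library was above every dnmt3b library for all 87 members, against 31.9% of the 14995 genes. Of the 119 genes that met the limit in dnmt3b but were not members, it was 72.3%. All of these libraries were from batch 2. Over the members the ratio of the cmt/dnmt3b mean to the dnmt3b mean ran from 1.42 to 835, with a median of 6.25.

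**Figure D2:**
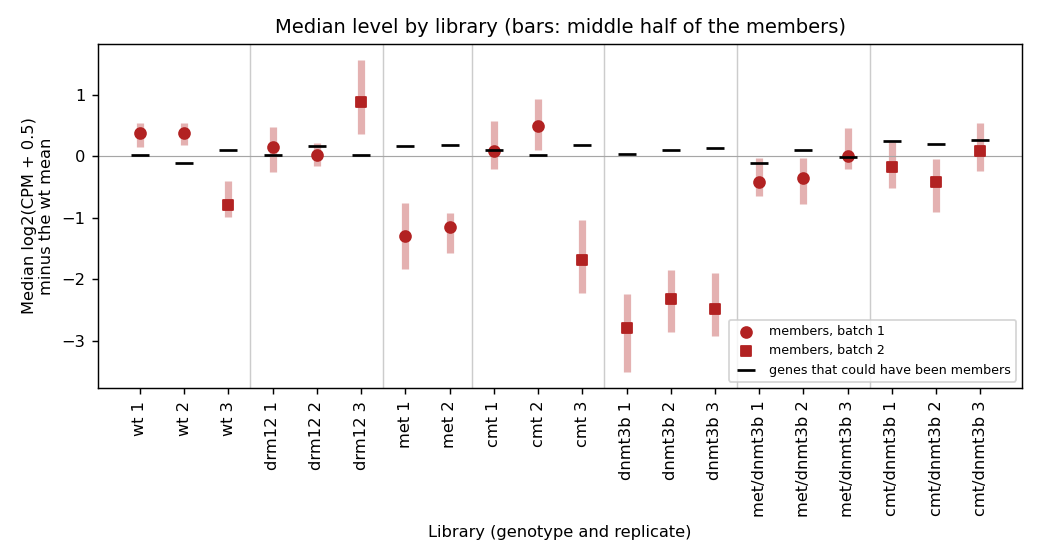
Median over the 87 members of the log2 level relative to the wt mean, with 1 point per library, circles for batch 1 and squares for batch 2, grouped by genotype. The medians were between -2.80 and -2.32 in dnmt3b, -1.29 and -1.15 in met, and between -0.41 and 0.09 in the double mutants, while cmt replicate 3 stood at -1.69 beside 0.09 and 0.50 in the other cmt libraries.

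The members that stood highest in cmt/dnmt3b passed the wt level several-fold. Pp3c5_7650 was at 16.3, 14.3 and 25.2 CPM in cmt/dnmt3b, against 2.82, 3.95 and 3.23 CPM in wt and 0.457, 1.17 and 1.02 CPM in dnmt3b. Its cmt/dnmt3b mean was 5.57 times the wt mean, while its met/dnmt3b libraries, at 1.87, 1.51 and 2.71 CPM, were all below the lowest wt library. Pp3c16_13260 was at 45.0, 34.8 and 52.7 CPM in cmt/dnmt3b and at 12.1, 10.7 and 22.4 CPM in met/dnmt3b. All 3 cmt/dnmt3b libraries were above every wt and every met/dnmt3b library. Pp3c2_25760 and Pp3c20_16410 followed, with cmt/dnmt3b means 2.37 and 2.35 times the wt mean. Pp3c27_4280 was high in both double mutants, at 361, 509 and 399 CPM in met/dnmt3b and 586, 417 and 530 CPM in cmt/dnmt3b, above all 3 wt libraries at 210, 249 and 222 CPM. Pp3c7_20170 was above wt in met/dnmt3b but not in cmt/dnmt3b, at 173, 183 and 122 CPM against 72.2, 74.6 and 64.0 CPM in cmt/dnmt3b and 77.0, 70.2 and 61.7 CPM in wt. At the other end, Pp3c20_15090, Pp3c2_32400, Pp3c24_16410 and Pp3c12_2240 had cmt/dnmt3b means of 0.514, 0.519, 0.520 and 0.540 of wt, just above the limit. Pp3c24_16410 was nevertheless above wt in every met/dnmt3b library, at 25.8, 26.2 and 31.3 CPM against 16.7, 25.0 and 11.7 CPM.

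Chromosomes 10 and 16 held 10 members each, 11.5% of the 87, while 3.89% and 4.14% of the 14995 genes lay there. On each of them 12 genes met the limit in dnmt3b, and 10 of those 12 passed in both double mutants. The median gene of these chromosomes was higher in cmt/dnmt3b than in wt, by 1.79 times on chromosome 10 and 2.17 times on chromosome 16, against 1.10 to 1.35 times on the other chromosomes. When the cmt/dnmt3b levels of the 2 chromosomes were divided by these ratios, 75 of the 87 genes still met the rule. These 75 include all 67 members of the other chromosomes, whose levels were not changed. Every member lost therefore lay on chromosome 10 or 16. No member lay on chromosome 22.

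The met libraries were not used in the selection, and the members were low in both. Their summed level was 3264 and 3091 CPM, below every library of wt, drm12, met/dnmt3b and cmt/dnmt3b, and above every dnmt3b library. The median member was at 0.410 and 0.449 of its wt mean. In met replicate 1, 25 members were under 0.5 of the lowest wt library (28.7%), compared with 0.527% of the 14995 genes, and in met replicate 2 it was 21 members (24.1%), compared with 1.17%. Both met libraries were below all 4 batch 1 libraries of drm12 and cmt for 71 members, against 6.52% of all genes. None of those 6 libraries was used to choose the members, whereas the limit at the lowest wt library was.

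All 87 differences between met and drm12 were negative in edgeR's quasi-likelihood fit with genotype and batch as terms, with a median log2 difference of -2.18, whereas 7056 of the 14995 genes (47.1%) were negative. At a Benjamini-Hochberg adjusted p under 0.05 over 26751 features, 9 of the 87 were lower in met (10.3%), compared with 0.300% of the 14995 genes, and none was higher. The batch term of this fit drew also on the wt libraries, which the selection used. Without that term 2 members were lower, with 8 of the 14995 genes lower, and the median was -1.81. With the batch 1 libraries only, 27 were lower (background 0.60%) and the median was -1.38. The count of 9 depended on single libraries. It was 58 without drm12 replicate 2, 32 without drm12 replicate 3 and 14 without drm12 replicate 1. Of the 14995 genes, 526, 132 and 66 were lower in these settings. With 1 met library left the median was -2.22 without met replicate 1 and -2.29 without met replicate 2. DESeq2 gave 59, with 467 of the 14995 genes lower. Pp3c7_20170 was at 37.8 and 22.8 CPM in met and at 108, 120 and 105 CPM in drm12, a log2 difference of -2.16 ± 0.34 (SE, adjusted p = 0.00456). Its lowest drm12 library was far above both met libraries. Pp3c23_940 was at 6.86 and 14.4 CPM in met and at 66.6, 43.0 and 32.2 CPM in drm12 (-2.68 ± 0.50, adjusted p = 0.0158). Pp3c1_23000, Pp3c2_25760, Pp3c20_16410, Pp3c3_4040 and Pp3c10_22960 were also called, with log2 differences of -2.45, -3.05, -2.36, -5.36 and -1.56.

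Against wt, whose libraries the selection used, the values are a description. The met mean was 0.0527 to 0.740 of the wt mean, with a median of 0.404, so that no member had a met mean above its wt mean. Pp3c23_940 was at 44.1, 83.1 and 18.0 CPM in wt, and both of its met libraries, at 6.86 and 14.4 CPM, were below the lowest wt library. Pp3c1_23000 was at 52.4, 119 and 32.7 CPM in wt and at 16.4 and 17.7 CPM in met. Pp3c10_22960 overlapped, at 48.0, 44.3 and 16.2 CPM in wt and 14.1 and 16.9 CPM in met.

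From met to met/dnmt3b, all in batch 1, the ratio of means ran from 0.859 to 12.6 over the members with a median of 2.02. For 71 of the 87 (81.6%), every met/dnmt3b library was above both met libraries, against 18.4% of the 14995 genes. Of the 119 genes that met the limit in dnmt3b but were not members, it was 46.2%. This comparison rests on the met/dnmt3b mean that the selection used, so it is a description. Pp3c3_4040 had the highest ratio, at 1.02 and 0.430 CPM in met and 9.15, 6.92 and 11.4 CPM in met/dnmt3b. Pp3c10_21810 was at 15.9 and 11.3 CPM in met, and at 89.3, 92.7 and 115 CPM in met/dnmt3b, where 2 of 3 libraries were within the range of wt and the other was above it. Its wt libraries were at 54.6, 104 and 8.44 CPM, a wide spread.

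The cmt mutant, also not used in the selection, split by batch. The summed level of the members was 7108 CPM in cmt replicate 1 and 8654 CPM in replicate 2, both of batch 1, and 2577 CPM in replicate 3, of batch 2 (6113 ± 3158 CPM, SD, n = 3). The batch 2 library was below both others for 84 of 87 members, compared with 35.7% of the 14995 genes, and under 0.5 of the lower of them for 66, compared with 4.77%. In cmt replicates 1 and 2 no member was under 0.5 of the lowest wt library (background 0.867% and 0.954%), while in cmt replicate 3 there were 42 (48.3%, background 2.09%). The mean of cmt replicates 1 and 2 was 0.774 to 397 times replicate 3, with a median of 4.05. In cmt replicate 3, 10 members were below their dnmt3b mean (11.5%, background 44.2%). For 70 members every dnmt3b library was below cmt replicate 3 (80.5%, background 33.2%). The selection held dnmt3b low, so these 2 shares are a description.

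In drm12 the batch 2 library lay on the other side. The summed level of the members was 7558 and 6827 CPM in drm12 replicates 1 and 2, of batch 1, and 12871 CPM in replicate 3, of batch 2 (9085 ± 3299 CPM, SD, n = 3). Replicate 3 was above both others for 64 members (background 34.8%) and over 2 times the higher of them for 33 (background 5.60%). For 64 members, cmt replicate 3 was the lowest cmt library and drm12 replicate 3 was the highest drm12 library, compared with 21.9% of all genes. No member was under 0.5 of the lowest wt library in any drm12 library, where the background was 1.39%, 0.213% and 1.31%.

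**Figure D3:**
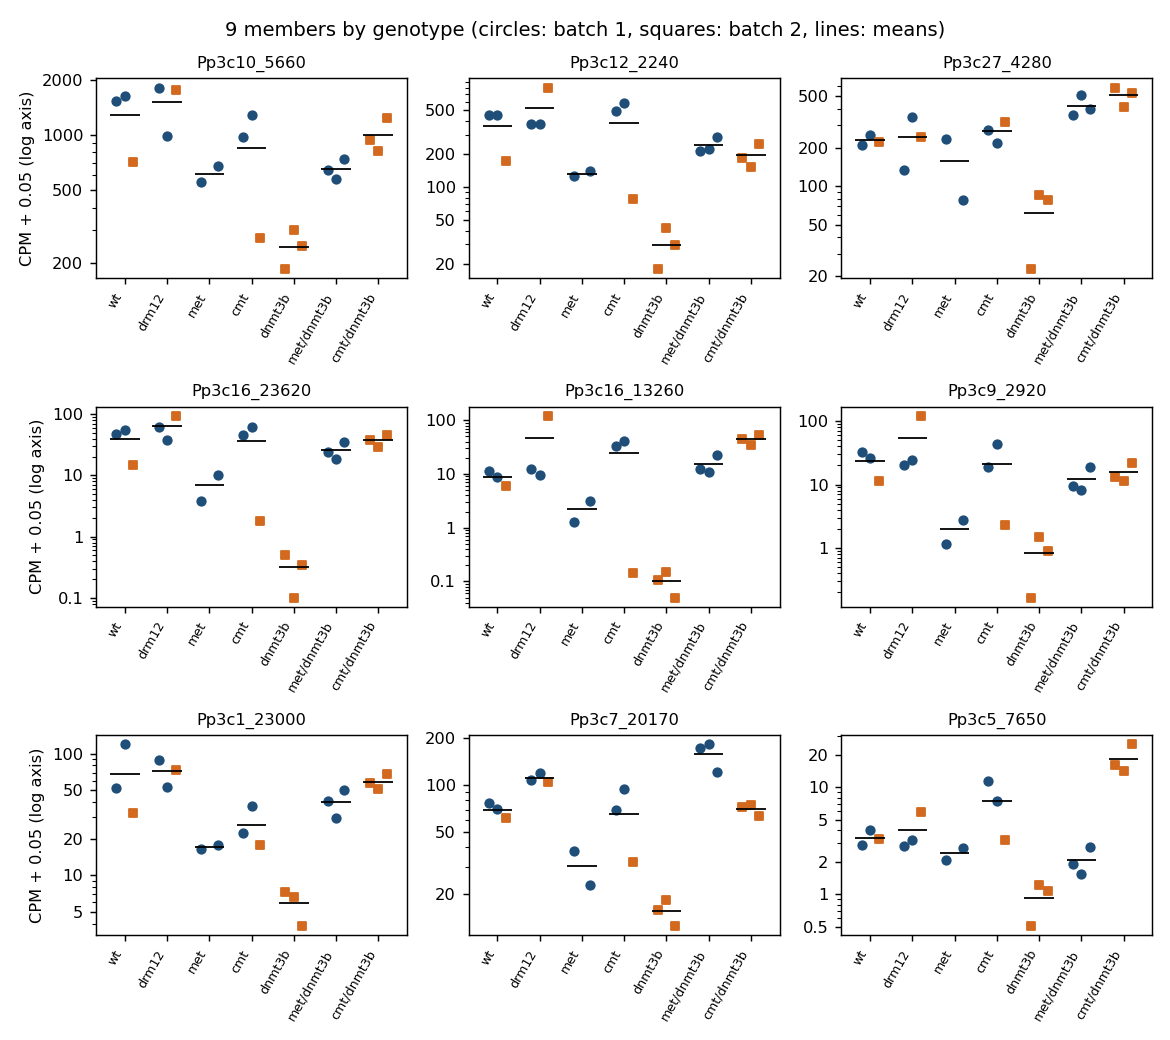
CPM of 9 members in every library by genotype on a log axis, with 0.05 CPM added so that a count of 0 can be drawn, circles for batch 1, squares for batch 2 and lines for the means. In the panel of Pp3c16_13260 the batch 2 library of drm12 lies at 121 CPM and that of cmt at 0.0922 CPM, while in the panel of Pp3c1_23000 all 3 cmt libraries lie between 17.8 and 37.3 CPM.

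Pp3c16_13260 showed the widest split. It was at 12.3 and 9.43 CPM in drm12 replicates 1 and 2 and at 121 CPM in replicate 3, and at 32.9 and 40.3 CPM in cmt replicates 1 and 2 and 0.0922 CPM (2 counts) in replicate 3. The pooled ratio of cmt replicates 1 and 2 to replicate 3 was 399, with a 95% exact interval of 110.2 to 3297 for counting error only. Within cmt it thus ranged from above every wt library to near 0. Pp3c9_2920 was at 19.95, 24.1 and 121 CPM in drm12 and at 18.8, 43.1 and 2.21 CPM in cmt. Pp3c16_23620 was at 61.5, 37.6 and 94.1 CPM in drm12 and at 46.3, 61.2 and 1.75 CPM in cmt. Pp3c12_2240, with a much higher level, was at 377, 379 and 809 CPM in drm12 and at 496, 588 and 77.2 CPM in cmt. Other members did not split in this way: Pp3c27_4280 was at 273, 215 and 316 CPM in cmt, with the batch 2 library the highest of the 3, and Pp3c20_16410 at 6.70, 8.50 and 7.42 CPM. Pp3c4_17500 had the same order with only a small split, at 479, 405 and 366 CPM in cmt and 343, 437 and 450 CPM in drm12.

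A fit of the drm12 and cmt libraries with 1 common batch term called 0 of the 87 members between batches (edgeR, background 0.00667%), with 4 at an unadjusted p under 0.05. DESeq2 also called 0, with 8 at an unadjusted p under 0.05. Without cmt replicate 3 the median log2 difference between batches was 0.97 over the members and -0.015 over the 14995 genes. Without drm12 replicate 3 it was -2.13 over the members and -0.034 over the 14995 genes. Batch 2 was then a single library, so these medians describe drm12 replicate 3 and cmt replicate 3 in turn. The opposite directions of the 2 libraries were not tested against each other. On the log2(CPM + 0.5) scale, the batch 2 library was below the batch 1 mean in cmt and above it in drm12 for 71 members. For Pp3c12_2240 the differences were -2.80 in cmt and 1.10 in drm12, for Pp3c10_5660 they were -2.03 and 0.39, and for Pp3c16_12680 they were -0.62 and -0.58.

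**Figure D4:**
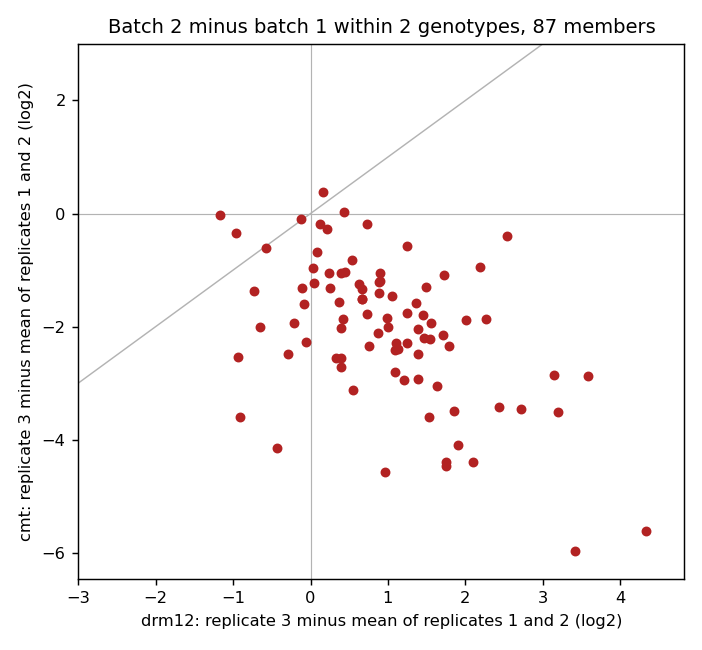
Log2(CPM + 0.5) of replicate 3 (batch 2) minus the mean of replicates 1 and 2 (batch 1) in drm12 (horizontal axis) and in cmt (vertical axis), with 1 point for each of the 87 members and a diagonal line where both differences would be equal. Below the line lie 83 points, and Pp3c16_13260 is at 3.42 in drm12 and -5.96 in cmt.

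With all libraries and a common batch term, 3 members were lower in cmt than in drm12 (background 1.77%) and 80 of 87 differences were negative (92.0%, against 52.2% of all genes), with a median of -0.82. Both ends of this contrast hold a batch 2 library that stood apart. Without cmt replicate 3 no member was called and the median was -0.13, while 270 of the 14995 genes were lower and 390 higher. Without drm12 replicate 3 there were 4 calls, 1 lower and 3 higher, with a median of 0.08. In that setting 541 of the 14995 genes were lower and 651 higher. With batch 1 libraries only, 8 members were higher in cmt (background 5.22%) and none lower, with a median of 0.20, so the direction turned. The count was also 0 without cmt replicate 1, 6 without cmt replicate 2, 6 without drm12 replicate 1, 10 without drm12 replicate 2 and 10 in DESeq2. All of these calls were lower, and 130, 206, 269, 347 and 436 of the 14995 genes were lower in the same settings. For each of the 3 called members, every cmt library was below every drm12 library. Pp3c1_23000 was at 22.1, 37.3 and 17.8 CPM in cmt and 89.0, 52.8 and 72.9 CPM in drm12 (-1.61 ± 0.39, adjusted p = 0.0178, and 1.94e-07 to 0.0953 over the alternatives). Pp3c16_12680 was at 13.2, 15.6 and 9.18 CPM in cmt and 24.5, 40.8 and 21.02 CPM in drm12 (-1.21 ± 0.32, adjusted p = 0.0324, range 0.000934 to 0.114). Pp3c18_14890 was at 71.7, 110 and 21.7 CPM in cmt and 150, 126 and 275 CPM in drm12 (-1.74 ± 0.50, adjusted p = 0.0461, range 3.19e-08 to 0.272). Its value shrank to -0.59 in one alternative.

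Against wt, again as a description, the cmt mean was 0.330 to 2.83 times the wt mean, with a median of 0.905, and the drm12 mean was 0.711 to 5.49 times, with a median of 1.32. Pp3c16_13260 had the highest ratio in both. These ratios share the wt libraries with the selection and with each other.

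Set against met, cmt was higher for 9 members (10.3%, background 0.934%), with 84 of 87 differences positive and a median of 1.27. Negative differences made up 3.45% of the members and 53.3% of the 14995 genes. In batch 1, where both met libraries lie, 63 members were higher in cmt (background 6.32%) and the median was 1.59. The count over all libraries was 42 without cmt replicate 3, 5 without cmt replicate 1, 0 without cmt replicate 2 and 24 in DESeq2. Of the 14995 genes, 526, 67, 55 and 321 were higher in these settings. With 1 met library left the median was 1.35 without met replicate 1 and 1.40 without met replicate 2. Pp3c23_940 was at 43.1, 51.4 and 17.9 CPM in cmt and at 6.86 and 14.4 CPM in met, a log2 difference of 2.18 ± 0.49 (adjusted p = 0.0136). All 3 cmt libraries were above both met libraries. Pp3c3_4040 was at 21.1, 28.4 and 1.57 CPM in cmt and at 1.02 and 0.430 CPM in met (4.70 ± 1.08, adjusted p = 0.0179).

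Over the 8 libraries that the selection did not use, cmt replicate 3 was the lowest for 54 members, met replicate 2 for 20, met replicate 1 for 11 and drm12 replicate 1 for 2. The highest was drm12 replicate 3 for 55. The other 119 genes that met the limit in dnmt3b but failed it in a double mutant were also often low in the same libraries. In met replicates 1 and 2, 31 and 23 of the 119 were under 0.5 of the lowest wt library (26.1% and 19.3%), and in cmt replicate 3 there were 74 (62.2%, against 48.3% of the members). In cmt replicates 1 and 2 the counts were 18 and 14 of 119 (15.1% and 11.8%), against none of the members. The cmt replicate 3 level was under 0.5 of the lower of the other cmt libraries for 89 of the 119 and for 66 of the 87. These shares were set side by side and not tested.

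Some members were neighbours. Of the 87, 5 pairs had no other gene row between them, namely Pp3c10_7880 with Pp3c10_7888, Pp3c13_17480 with Pp3c13_17510, Pp3c14_1598 with Pp3c14_1600, Pp3c16_23620 with Pp3c16_23630, and Pp3c7_20170 with Pp3c7_20200. Pp3c16_13260 and Pp3c16_13280 had 1 gene row between them. These 12 members should not be counted as independent of each other, though dependence was not tested. Where neighbouring genes overlap their reads could be split between them, since strand and counting rules were not given in the sources used here. Pp3c16_13280 was at 57.1, 45.0 and 20.7 CPM in wt, 1.43, 1.93 and 1.92 CPM in dnmt3b and 71.6, 58.5 and 106 CPM in cmt/dnmt3b. It shared with Pp3c16_13260 the high drm12 replicate 3, at 192 CPM against 68.7 and 46.8 CPM, and the low cmt replicate 3, at 2.86 CPM against 62.6 and 87.9 CPM.

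Across the 20 libraries, the members whose log2 level was most like that of Pp3c10_5660 were Pp3c10_25030 (Pearson r = 0.967), Pp3c16_25090 (0.952) and Pp3c10_11730 (0.939). Over all other members r ran from 0.505 to 0.967 with a median of 0.876. The members were selected on 12 of these libraries, so the likeness is a description.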

How the data were processed

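The deposited table holds the authors' raw counts per feature in 20 libraries, for 31967 gene rows and 241351 rows of transposable elements. STAR 2.7.0f, cutadapt 1.15 and Trim Galore 0.6.0 are listed in the submitters' processing notes. For the counter, strand setting, multi-mapping reads, build and annotation, details were not given in the sources used here. Every row had an identifier, and 0 gene identifiers matched the RefSeq gene table, so lists by gene product could not be applied.

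The members and lists were chosen with earlier results of these data known. CPM used summed gene counts. Counts of all 20 libraries were fitted with edgeR 4.0.16 (R 4.3.3), quasi-likelihood test, genotype and batch as terms, TMM over genes and transposable elements, and a low-count filter (at least 10 counts per library by group, 15 in total) that kept 26751 features. P-values were adjusted over these by Benjamini-Hochberg, with a threshold of 0.05, for 4 comparisons: cmt and met with drm12, cmt with met, and batch 2 with batch 1 in drm12 and cmt. Planned comparisons of drm12, met and cmt with wt were fitted but are not reported as tests, because the wt libraries chose the members. Calls were counted over the members and, as background, over the 14995 genes at 2 CPM or more in every wt library. The fit was tested on simulated data. Alternatives were other scalings, no low-count filter, no batch term, a replicate block, batch 1 only and DESeq2 1.42.0. Each library of the groups compared was also left out in turn. No single wt library was left out for the comparisons among met, cmt and drm12, whose batch term drew also on wt.

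Named members were those with the highest wt mean, the largest fall in dnmt3b, the lowest adjusted p among those called in cmt against drm12 and met against wt, and the highest and lowest cmt/dnmt3b means relative to wt, with the 2 nearest the limit. Members outside this rule were named after their values were seen. Replicates of a group were no repeats of one another: chi-square divided by its degrees of freedom was 7.61 or more in each pair.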

Additional observations from a re-analysis of the deposited data

Results flagged for a closer look

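For 64 of the 87 members, cmt replicate 3 was below both other cmt libraries while drm12 replicate 3 was above both other drm12 libraries, so that the batch 2 library moved in opposite directions in the 2 genotypes. The same pattern held for 21.9% of the 14995 genes. Each genotype had 1 batch 2 library, and the difference between the genotypes was not tested.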

How the results depend on the processing

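The rule gave 87 genes. It gave 56 with TMM-scaled library sizes, 38 with dnmt3b held under 0.333 of the lowest wt library, 206 with wt replicate 3 as the only wt library, and 93 to 243 when 1 library of wt or dnmt3b was left out. As alternatives added after seeing the data, it gave 148 genes with the drm12 libraries in place of wt, of which 44 were among the 87, and 122 with the cmt libraries in place of wt, of which 18 were among the 87. Beyond what each setting changes by construction, the cause of these changes was not tested. By construction, TMM factors of 1.21 to 1.30 in cmt/dnmt3b and 0.832 to 0.970 in wt lower cmt/dnmt3b relative to wt.

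Counts of members called moved with most settings, and the cause was not tested beyond what each setting changes by construction. Without the low-count filter the counts were 38 (cmt and drm12), 75 (met and drm12), 59 (cmt and met) and 1 (batch 2 and batch 1). Over the 14995 genes the counts in the same directions were 587, 683, 601 and 20. Without the batch term the member counts were 0 (cmt and drm12), 2 (met and drm12) and 4 (cmt and met). Background counts were then 186 lower (cmt and drm12), 8 lower (met and drm12) and 114 higher (cmt and met). With the batch 1 libraries only the member counts were 8 in the other direction (cmt and drm12), 27 (met and drm12) and 63 (cmt and met). DESeq2 gave 10 (cmt and drm12), 59 (met and drm12) and 24 (cmt and met), against 436, 467 and 321 of the 14995 genes. Leaving out 1 library was counted where every genotype and batch kept 2 or more. It gave 0 to 10 (cmt and drm12), 14 to 58 (met and drm12), 0 to 42 (cmt and met) and 0 (batch 2 and batch 1). Where a met group or a batch was left with 1 library, only medians are given. That library was assumed to vary like the others.

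With the replicate number as a block, 4 members were lower in met than in drm12, with 17 of the 14995 genes lower. The block moved no other count by over 1.5 times. Same-numbered libraries were not taken as paired: those of cmt and drm12 deviated in opposite directions (r = -0.248, -0.320 and -0.310), and the 2 met libraries had r = 0.09 with drm12 and -0.158 with cmt. At these depths a member with few counts, such as Pp3c16_13260 in dnmt3b, has a wide counting interval.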

Other observations

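Of the genes on chromosome 19, which the rule leaves out, 468 were at 2 CPM or more in every wt library. Of these, 23 met the limit in dnmt3b and 9 would have passed the whole rule.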
